A study of Saccharomyces cerevisiae with 10 samples.

Results

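The genes described here are 44 genes of the Saccharomyces cerevisiae cell wall, out of 6259 genes and unnamed rows on the array, of which 5645 are named genes. They were taken by gene symbol from a fixed list: the synthases of glucan and chitin, enzymes that remodel the wall, the proteins bound in it, the genes that separate daughter from mother cells, and a kinase and a transcription factor that act on wall genes. Each of the 44 symbols was found on 1 row, and all 44 genes had enough values to be tested.

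The wall of yeast is a shell of beta-1,3-glucan, to which beta-1,6-glucan, a small amount of chitin and an outer layer of mannoproteins are attached. Glucan and chitin are made by synthases in the plasma membrane. Glycosylphosphatidylinositol (GPI) proteins are then joined to the wall through beta-1,6-glucan and Pir proteins directly to beta-1,3-glucan. After division a set of glucanases and chitinases cuts the septum. Damage to the wall is signalled through Rho1, Pkc1 and a kinase cascade that ends in Slt2 and the transcription factor Rlm1.

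The study compared the strain DJ28 with the strain FY23 on 10 arrays with 2 dyes. Its title names a mutant with a constantly active Ras/cAMP pathway, which signals glucose supply through protein kinase A, and its keywords name PDE2. The labels give no further genotype, medium, growth phase or age for either strain. On arrays 1 to 5 the dye of DJ28 was Cy3 and that of FY23 was Cy5, and the dyes were swapped on arrays 6 to 10. Arrays 6 and 7 were almost the same (r = 0.988 across genes, against at most 0.694 for any other pair), so their mean counts as 1 of 9 replicates, of which 5 have DJ28 in Cy3 and 4 have DJ28 in Cy5. Nothing in the labels tells separate cultures from repeated hybridisations, so the p-values below measure the spread between arrays, which may be technical.

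All values below are log2 ratios of DJ28 over FY23, each array first centred on its median. Across genes these ratios correlated poorly between the dye orientations. For arrays with DJ28 in Cy3 against Cy5, r ran from -0.675 (arrays 3 and 8) to 0.202 (arrays 3 and 9). No source used here names the numerator of the deposited dye ratio. Cy5 was used as the numerator, which puts PDE2, the gene of a cyclic AMP phosphodiesterase, lower in DJ28 on 8 of 8 replicates, with a log2 difference of -1.96 (SE 0.17, limma adjusted p = 0.00153). This direction is likely but not settled, and with the other dye as numerator every sign below turns together while sizes and p-values stay. An array ratio carries no level of a gene, so no gene is set against another by abundance. Of the 44 genes, 28 had a value on array 1 and 41 on array 2, against 43 or 44 on each of arrays 3 to 10, and 27 had a value on all 9 replicates. Of the mating-type markers, 0 of 8 tested passed, where 0.549% of all genes did. The 5 markers of a cells (MFA1, MFA2, STE2, BAR1 and AGA2) had differences from 0.21 to 0.61, and the 3 tested of alpha cells (MF(ALPHA)1, STE3 and SAG1) from -0.16 to -0.003. Of these, MFA1, MFA2, STE2 and AGA2 had an unadjusted limma p under 0.05, as did 13.3% of all genes. The means of MFA1, MFA2 and AGA2 were -0.21, -0.185 and -0.52 with DJ28 in Cy3, and 1.42, 1.19 and 1.30 in Cy5. Their dye terms passed limma's test (adjusted p = 0.0409, 0.038 and 0.0286). The part of mating type in the results was not tested.

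None of the 44 wall genes passed the test between DJ28 and FY23. In limma's test, with a threshold of 0.05 on p-values adjusted after Benjamini and Hochberg over the 5642 genes and unnamed rows tested, 0 wall genes were higher and 0 were lower in DJ28. Over all genes 0.549% passed, 0.0886% as higher and 0.461% as lower. The lowest adjusted p among the wall genes was 0.0674, for the glucan synthase gene GSC2. Before adjustment, 8 wall genes (18.2%) had a p under 0.05, against 13.3% of all genes. Of these 8, GSC2, FKS1, KRE6, DSE4 and EGT2 were lower in DJ28, where 7.39% of all genes fell on that side, and GAS4, UTR2 and CCW12 were higher, where 5.96% of all genes did. The 44 differences had a median of -0.11, with 28 negative and 16 positive, beside a median of 0.03 over all genes, of which 43.9% were negative. By array the median wall gene ran from -0.40 on array 3 to 0.18 on array 8.

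The 95% intervals show how large a difference the spread between arrays leaves room for. If the arrays are repeated hybridisations, these intervals hold no spread between cultures. For 42 of the 44 genes (95.5%) the interval lay within a 2-fold difference either way, as it did for 95.6% of all genes, and for 33 it lay within 1.5-fold. The exceptions at 2-fold were FKS1, with an interval from -1.31 to -0.02, and CHS2, with one from -1.52 to 0.79.

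**Figure D1:**
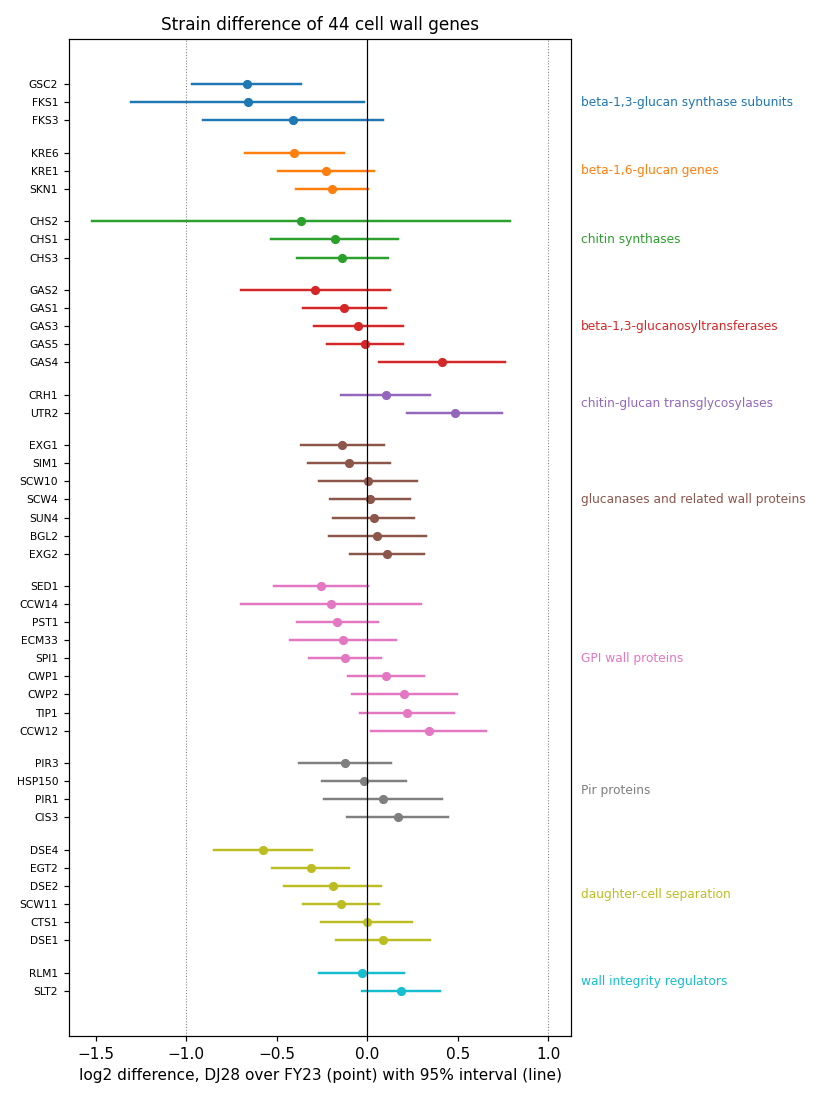
Strain difference of each of the 44 wall genes as the log2 ratio of DJ28 over FY23 (x axis), with genes grouped by class down the page. Points are limma estimates over 6 to 9 replicates, lines their 95% intervals, and dotted lines mark a 2-fold difference. All 9 synthesis genes lie left of 0, and the interval of GSC2 runs from -0.97 to -0.36.

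All 9 genes of glucan and chitin synthesis had negative differences, beside 43.9% of all genes. They ran from -0.67 to -0.14, with a median of -0.37, and the class median was below 0 on 8 of 9 replicates. None of the 9 passed the test, and 3 had an unadjusted p under 0.05. The medians were -0.35 within arrays 4, 5, 9 and 10 and -0.31 within the remaining arrays. Values within these 2 array sets are given because arrays 4, 5, 9 and 10 had similar patterns of empty cells (r from 0.381 to 0.503 among them, and from 0.084 to 0.254 with the remaining arrays). No label names a batch.

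The 3 genes of beta-1,3-glucan synthase had a median of -0.66, the farthest from 0 of the 10 classes. GSC2 (YGR032W), also called FKS2, encodes the alternative catalytic subunit, which is known to be induced by starvation and stress. Its log2 ratios were -0.01, -0.38, -0.60, -0.04 and -0.83 on arrays 1 to 5, and -1.34, -1.33, -0.21, -1.31 and -0.99 on arrays 6 to 10. GSC2 was thus below 0 on all 9 replicates, close to 0 on arrays 1 and 4, and lowest on arrays 6, 7 and 9. Its difference was -0.67 (SE 0.14), or 1.59-fold lower in DJ28, with an adjusted p of 0.0674 in limma. It was -0.79 within arrays 4, 5, 9 and 10 and -0.55 within the remaining arrays.

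The call of GSC2 depended on the setting. It passed with array weights (adjusted p = 0.0124, where 2.00% of all genes passed), with all 10 arrays counted apart (adjusted p = 0.0205, 1.39% of all genes), on genes with a value on every replicate (adjusted p = 0.0183, 2.00% of genes) and with robust variance shrinkage and a trend (adjusted p = 0.0454, 0.691% of all genes). It also passed without array 4 (adjusted p = 0.0438, where 36 of all genes passed) and without array 8 (adjusted p = 0.0137, 79 of all genes). It did not pass without any other single array. Over the fits that left out 1 array its adjusted p ran from 0.0137 to 0.272. Without arrays 6 and 7 its difference was -0.60 and its adjusted p 0.22. The fit with all 10 arrays counted apart takes arrays 6 and 7, which were almost the same, as 2 replicates.

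FKS1 (YLR342W) encodes the main catalytic subunit of the enzyme in growing cells. Its log2 ratios were -1.49, -1.51, -0.48, 0.87 and -0.75 on arrays 1 to 5, and -2.34, -2.37, 0.49, -0.48 and -0.25 on arrays 6 to 10. The values of FKS1 were high on arrays 4 and 8, low on arrays 1 and 2 and lowest on arrays 6 and 7. High and low values thus occurred in both dye orientations. The replicates had an SD of 1.01, against a median of 0.42 over all genes. The difference was -0.66 (SE 0.29, adjusted p = 0.371), as large as that of GSC2 but with a wider interval. It was -0.15 within arrays 4, 5, 9 and 10 and -1.045 within the remaining arrays. Without arrays 6 and 7 it was -0.38, and without arrays 1 and 2 it was -0.39. FKS3 (YMR306W), a related gene known for its role in spore wall formation, had a difference of -0.41 (SE 0.23, adjusted p = 0.443). That value rested on array 5, at -2.27, and on arrays 6 and 7, at -1.05 and -1.10, while its other 7 values lay between -0.26 and 0.08. Without array 5 the FKS3 difference was -0.20. FKS1 and GSC2 are close relatives in sequence, and the probe sequences are not given, so the part of cross-hybridisation in either was not tested.

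Beta-1,6-glucan, the polymer that anchors GPI proteins, depends on KRE6, SKN1 and KRE1. KRE6 (YPR159W) encodes a Golgi and plasma membrane protein needed for its synthesis. The KRE6 ratios were -0.29, -0.63, 0.26 and -0.45 on arrays 2 to 5, and -0.70, -0.72, -0.14, -0.73 and -0.53 on arrays 6 to 10, with no value on array 1. KRE6 was below 0 on 7 of 8 replicates, the exception being array 4. Its difference was -0.40 (SE 0.12, adjusted p = 0.241), with -0.36 and -0.44 within the 2 array sets. SKN1 (YGR143W), the homologue of KRE6, had a smaller difference of -0.20 (SE 0.09, adjusted p = 0.373), also below 0 on 7 of 8 replicates.

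KRE1 (YNL322C) encodes a GPI protein of beta-1,6-glucan assembly that is also the receptor of K1 killer toxin. The KRE1 ratios were -0.34, -0.55, -0.81, -0.48 and -0.06 on arrays 1 to 5, and 0.43, 0.47, 0.28, -0.44 and -0.34 on arrays 6 to 10. KRE1 was below 0 on all arrays with DJ28 in Cy3 and on arrays 9 and 10, and above 0 on arrays 6 to 8. Its difference was -0.23 (SE 0.12, adjusted p = 0.427).

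Among the chitin synthases, CHS2 (YBR038W), which builds the primary septum, varied most. The CHS2 ratios were -0.78, 0.22 and 3.76 on arrays 1, 3 and 4, and -2.08, -2.78, -1.11 and -1.87 on arrays 6, 7, 8 and 10, with no value on arrays 2, 5 and 9. The replicates of CHS2 spanned both signs with an SD of 2.22, and its difference of -0.37 (SE 0.51, adjusted p = 0.768) is not distinguishable from 0. CHS1 (YNL192W), the synthase of septum repair, had ratios of 1.2, -0.09, 0.14 and -0.11 on arrays 2 to 5, and -0.87, -0.71, -0.21, -0.97 and -0.62 on arrays 6 to 10. CHS1 was below 0 on every array with DJ28 in Cy5 and on both sides of 0 with DJ28 in Cy3, and its difference was -0.18 (SE 0.16, adjusted p = 0.629). For CHS1 it was -0.334 without array 2 and -0.116 without array 5. The median of the 3 synthases was 0.29 with DJ28 in Cy3 alone and -0.65 with DJ28 in Cy5 alone. CHS3 (YBR023C), which makes most of the chitin of the lateral wall and bud neck ring, had a difference of -0.14 (SE 0.11, adjusted p = 0.609).

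**Figure D2:**
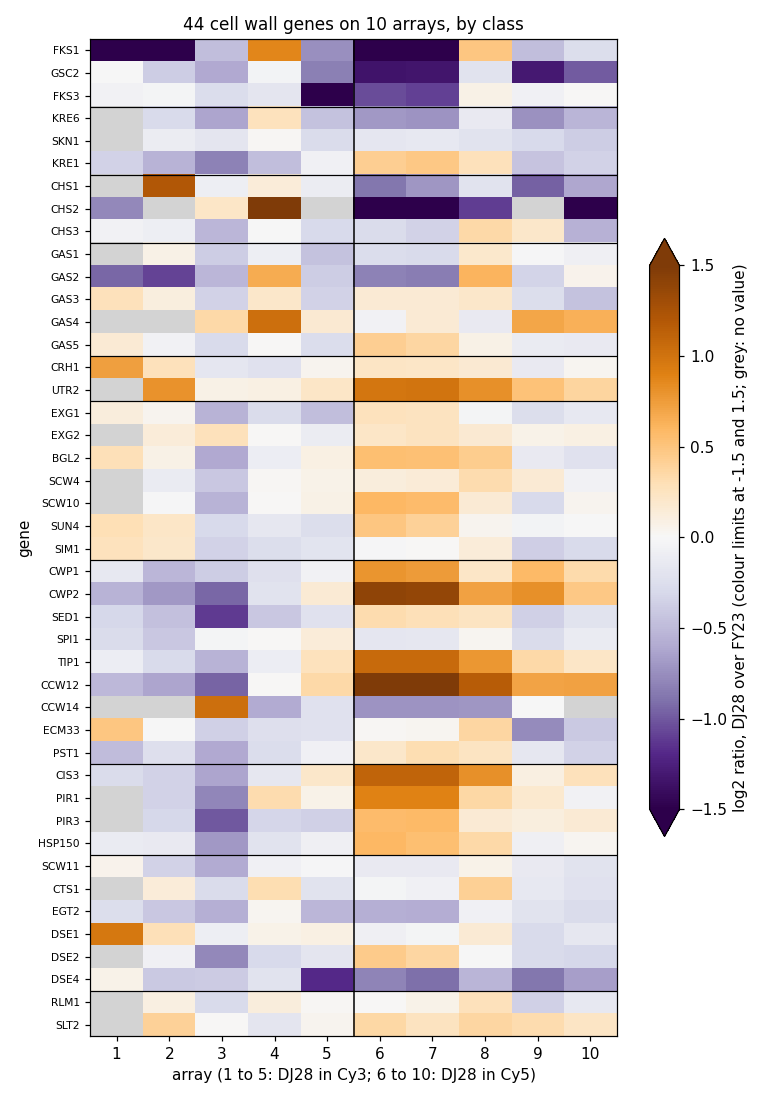
Log2 ratio of DJ28 over FY23 for the 44 wall genes (rows, by class) on the 10 arrays (columns), with purple for lower and orange for higher in DJ28 and grey for no value. Colours stop at -1.5 and 1.5. The rows of GSC2 and DSE4 are purple on most arrays of both dye orientations, while CWP2, CCW12, CIS3 and PIR3 are mostly purple on arrays 1 to 5 and orange on arrays 6 to 10.

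Enzymes that remodel the wall did not move together. Of 14 genes 8 had positive and 6 negative differences, with a median of 0.01, 0 passed the test and 2 had an unadjusted p under 0.05, UTR2 and GAS4. UTR2 (YEL040W) and CRH1 (YGR189C) encode the transglycosylases that join chitin to glucan. The UTR2 ratios were 0.80, 0.08, 0.09 and 0.22 on arrays 2 to 5, and 0.98, 0.99, 0.81, 0.52 and 0.38 on arrays 6 to 10, with no value on array 1. UTR2 was above 0 on 8 of 8 replicates, although arrays 3 and 4 were close to 0. Its difference was 0.48 (SE 0.12, adjusted p = 0.148), or 1.40-fold, and it was 0.30 and 0.67 within the 2 array sets. It passed only in the fit with all 10 arrays counted apart (adjusted p = 0.048), of the alternatives run. That fit takes arrays 6 and 7, where UTR2 was highest, as 2 replicates.

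CRH1 did not share this pattern. Its ratios were 0.73, 0.27, -0.17, -0.22 and 0.04 on arrays 1 to 5, and 0.23, 0.22, 0.17, -0.13 and 0.03 on arrays 6 to 10, with a difference of 0.10 (SE 0.11, adjusted p = 0.705). The values of CRH1 lay on both sides of 0 in each dye orientation.

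The Gas proteins lengthen beta-1,3-glucan chains. GAS4 (YOL132W) is known as a gene of spore wall assembly, as is GAS2 (YLR343W). The GAS4 ratios were 0.34, 1.03 and 0.17 on arrays 3 to 5, and -0.05, 0.16, -0.14, 0.70 and 0.64 on arrays 6 to 10, with no value on arrays 1 and 2. GAS4 was above 0 on 6 of 7 replicates and highest on arrays 4, 9 and 10, and its difference was 0.41 (SE 0.155, adjusted p = 0.324). GAS2 had ratios of -0.94, -1.08, -0.52, 0.66 and -0.38 on arrays 1 to 5, and -0.82, -0.84, 0.61, -0.33 and 0.05 on arrays 6 to 10, with a difference of -0.29 (SE 0.19, adjusted p = 0.517). Like FKS1, GAS2 was high on arrays 4 and 8 and low on arrays 1, 2, 6 and 7. FKS1 and GAS2 lie close on the chromosome, with 1 gene between them, and had r = 0.92 over 9 replicates. For the other neighbouring wall genes compared, r ran from -0.34 (FKS3 and SCW10) to 0.95 (CWP1 and CWP2). CWP2 and CCW12, which lie on different chromosomes, had r = 0.98. The part of chromosome position in the pattern of FKS1 and GAS2 was not tested. The 3 vegetative members were close to 0: GAS1 (YMR307W), the main Gas protein of growing cells, was at -0.13, GAS3 (YMR215W) at -0.05 and GAS5 (YOL030W) at -0.01, with SEs from 0.095 to 0.112.

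The 7 glucanases and related proteins had differences from -0.14 to 0.11, and all 7 intervals lay within 1.5-fold. EXG1 (YLR300W) encodes the major secreted exoglucanase. The EXG1 ratios were 0.12, 0.04, -0.55, -0.28 and -0.48 on arrays 1 to 5, and 0.26, 0.25, -0.03, -0.25 and -0.15 on arrays 6 to 10, around a difference of -0.14 (SE 0.10, adjusted p = 0.571). EXG2 (YDR261C), its GPI-anchored relative, had ratios of 0.14, 0.28, -0.00 and -0.11 on arrays 2 to 5, and 0.22, 0.25, 0.17, 0.07 and 0.09 on arrays 6 to 10, with a difference of 0.11 (SE 0.09, adjusted p = 0.615). EXG1 was thus mostly negative and EXG2 mostly positive, neither beyond its spread.

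SIM1 (YIL123W) belongs, with SUN4, to the SUN family of wall proteins. The SIM1 ratios were 0.26, 0.21, -0.35, -0.25 and -0.19 on arrays 1 to 5, and -0.02, 0.00, 0.14, -0.37 and -0.29 on arrays 6 to 10, with a difference of -0.10 (SE 0.10, adjusted p = 0.687). It was -0.28 within arrays 4, 5, 9 and 10 and 0.05 within the remaining arrays. BGL2 (YGR282C), an abundant glucanosyltransferase of the wall, was at 0.05, SUN4 (YNL066W) at 0.035, SCW4 (YGR279C) at 0.01 and SCW10 (YMR305C), a relative of SCW4, at 0.002, with SEs from 0.099 to 0.122.

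**Figure D3:**
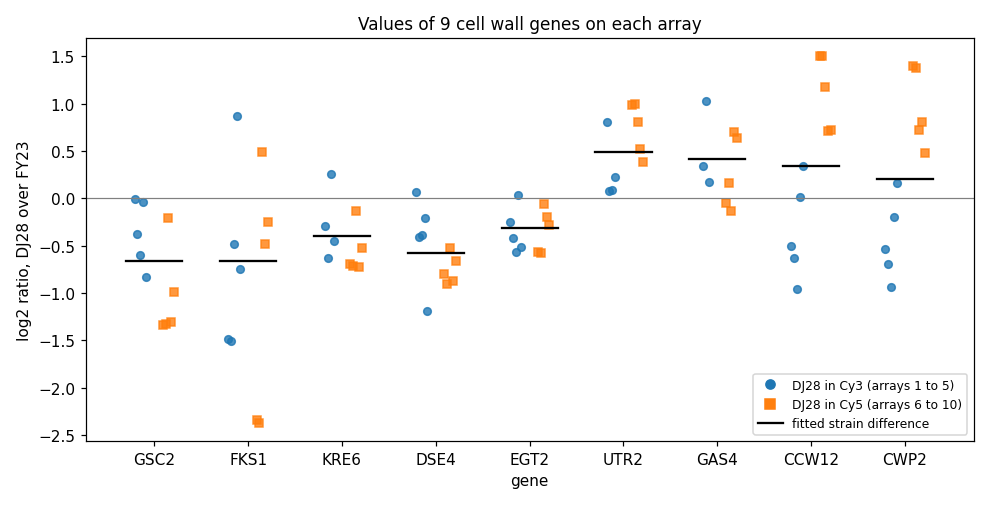
Log2 ratios of DJ28 over FY23 on each of the 10 arrays (y axis) for 9 wall genes (x axis). Blue circles are arrays 1 to 5 with DJ28 in Cy3, orange squares arrays 6 to 10 with DJ28 in Cy5, and black lines the fitted strain differences. GSC2 lies below 0 throughout, UTR2 above 0 throughout, FKS1 spreads from -2.37 to 0.87, and CCW12 and CWP2 split by dye orientation.

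Of the 13 genes of GPI and Pir wall proteins 6 had positive and 7 negative strain differences, with a median of -0.02, and 0 passed the test. On arrays labelled with DJ28 in Cy3 the class median was -0.25, and on those with the dyes swapped it was 0.25. In the fit the dye term takes up this contrast, and for each gene it is the contrast divided by 2. It is equal on all arrays whichever strain carries the dye. The dye term was positive for 10 of the 13 genes, beside 44.3% of all genes, with a median of 0.27 beside -0.03 over all genes. Positive dye terms were also frequent in 10 of the 14 remodelling enzymes (median 0.08) and in 29 of all 44 wall genes (median 0.07). Among the 9 synthesis genes 4 were positive (median -0.06). The dye term passed limma's test for CCW12 and CWP2, 2 of the 44 wall genes, where 3.05% of all genes passed.

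CCW12 (YLR110C) encodes one of the most abundant mannoproteins of the wall. Its ratios were -0.51, -0.63, -0.96, 0.01 and 0.34 on arrays 1 to 5, and 1.5, 1.5, 1.17, 0.71 and 0.72 on arrays 6 to 10. All values with DJ28 in Cy5 exceeded all values with DJ28 in Cy3. The dye term of CCW12 was 0.69 (adjusted p = 0.0344), and its strain difference was 0.34 (SE 0.145, adjusted p = 0.353). With DJ28 in Cy3 alone the difference was -0.35, so its sign is not settled by both orientations. CWP2 (YKL096W-A), a further GPI mannoprotein, is named for its dye term after its values were seen. The CWP2 ratios were -0.54, -0.70, -0.94, -0.20 and 0.16 on arrays 1 to 5, and 1.40, 1.38, 0.72, 0.81 and 0.48 on arrays 6 to 10. The orientations of CWP2 did not overlap either, and its dye term was 0.65 (adjusted p = 0.0341) beside a strain difference of 0.20 (SE 0.13, adjusted p = 0.511). Both dye calls were lost without arrays 6 and 7, without array 1, without array 2 and without array 8.

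SED1 and TIP1 are GPI proteins known for stress and for cold shock. SED1 (YDR077W) had ratios of -0.31, -0.46, -1.12, -0.42 and -0.22 on arrays 1 to 5, and 0.32, 0.29, 0.24, -0.36 and -0.21 on arrays 6 to 10. SED1 was negative outside arrays 6 to 8 and lowest on array 3, with a difference of -0.255 (SE 0.12, adjusted p = 0.376). TIP1 (YBR067C) had ratios of -0.10, -0.29, -0.55, -0.10 and 0.26 on arrays 1 to 5, and 1.06, 1.06, 0.78, 0.34 and 0.22 on arrays 6 to 10. Apart from array 5, TIP1 split by orientation, and its strain difference was 0.22 (SE 0.12, adjusted p = 0.434) beside a dye term of 0.38 (adjusted p = 0.0967).

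The remaining GPI genes lay between -0.20 and 0.10. SPI1 (YER150W), a wall protein gene known to be induced by weak acid and in stationary phase, had a difference of -0.125 (SE 0.09, adjusted p = 0.552). PST1 (YDR055W) and ECM33 (YBR078W), related GPI proteins of wall integrity, were at -0.165 (SE 0.10) and -0.13 (SE 0.13), and CWP1 (YKL096W), a mannoprotein gene, was at 0.10 (SE 0.095). ECM33 was at -0.41 within arrays 4, 5, 9 and 10 and at 0.12 within the remaining arrays. CCW14 (YLR390W-A), a structural mannoprotein, had 6 replicates and a difference of -0.20 (SE 0.22, adjusted p = 0.705). On array 10 its cell held the highest value the table allows and was left out, and with that cell kept the difference would be 1.86.

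Pir proteins, which carry internal repeats and bind beta-1,3-glucan directly, had positive dye terms in all 4 cases, from 0.23 to 0.41, and none of these passed (adjusted p from 0.0961 to 0.30). CIS3 (YJL158C) had ratios of -0.28, -0.34, -0.63, -0.16 and 0.20 on arrays 1 to 5, and 1.11, 1.11, 0.82, 0.10 and 0.28 on arrays 6 to 10, with a strain difference of 0.17 (SE 0.13, adjusted p = 0.569). PIR3 (YKL163W) had ratios of -0.31, -1.0, -0.32 and -0.36 on arrays 2 to 5, and 0.57, 0.58, 0.16, 0.11 and 0.16 on arrays 6 to 10, with a strain difference of -0.12 (SE 0.11, adjusted p = 0.651). PIR3 changed sign with the dyes on every array, and CIS3 on all but array 5. PIR1 (YKL164C) was at 0.08 (SE 0.15), and HSP150 (YJL159W), whose secreted product is known to increase on heat shock, at -0.02 (SE 0.105). The Pir genes resemble each other in sequence, so how far their spots are independent was not tested.

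**Figure D4:**
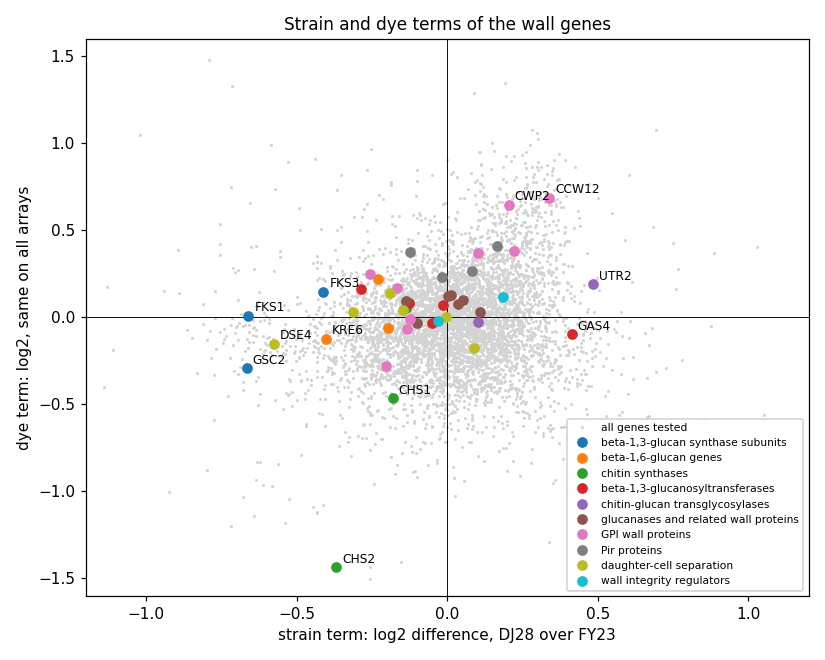
Dye term (y axis, log2) against strain difference (x axis, log2 ratio of DJ28 over FY23) for the 44 wall genes, coloured by class, over all 5642 genes tested in grey (points beyond the axes are not drawn). CCW12 and CWP2 have the largest positive dye terms of the wall genes, at 0.69 and 0.65, and the glucan synthase genes lie left of 0 with dye terms from -0.29 to 0.15.

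Of the 6 genes of daughter-cell separation 5 had negative differences, beside 43.9% of all genes, and 1 of these, CTS1, was at -0.003. The median was -0.17, and it was -0.17 and -0.14 within the 2 array sets. None passed the test, and 2 had an unadjusted p under 0.05. The arrays measured RNA of whole cell populations, in which fewer separating cells and less RNA per cell cannot be told apart. DSE4 (YNR067C), also called ENG1, encodes the endo-beta-1,3-glucanase that cuts the septum from the daughter side. Its ratios were 0.07, -0.41, -0.39, -0.21 and -1.19 on arrays 1 to 5, and -0.80, -0.91, -0.53, -0.87 and -0.66 on arrays 6 to 10. DSE4 was below 0 on 8 of 9 replicates, array 1 being the exception. The difference was -0.58 (SE 0.12), or 1.49-fold lower in DJ28, with an adjusted p of 0.0814 in limma, and -0.73 and -0.47 within the 2 array sets.

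DSE4 also depended on the setting for its call. It passed with array weights (adjusted p = 0.0214), with all 10 arrays counted apart (adjusted p = 0.0251) and on genes with a value on every replicate (adjusted p = 0.0241), the fits whose shares of all genes are given for GSC2. With robust variance shrinkage its adjusted p was 0.0552. Over the fits that left out 1 array its adjusted p ran from 0.0605 to 0.309, and its difference from -0.64 to -0.48.

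EGT2 (YNL327W), which encodes a GPI protein of cell separation, had ratios of -0.25, -0.42, -0.57, 0.03 and -0.52 on arrays 1 to 5, and -0.57, -0.58, -0.06, -0.20 and -0.28 on arrays 6 to 10. EGT2 was below 0 on 8 of 9 replicates, with a difference of -0.31 (SE 0.10, adjusted p = 0.241) and a dye term of 0.03. DSE2 (YHR143W), a daughter-specific wall protein gene, had ratios of -0.07, -0.78, -0.30 and -0.18 on arrays 2 to 5, and 0.45, 0.37, -0.01, -0.29 and -0.31 on arrays 6 to 10, with a difference of -0.19 (SE 0.12, adjusted p = 0.505). DSE2 was above 0 on arrays 6 and 7 alone. SCW11 (YGL028C), a glucanase-like gene, was at -0.15 (SE 0.10), DSE1 (YER124C), a daughter-specific gene, at 0.09 (SE 0.12), and CTS1 (YLR286C), the endochitinase of septum cleavage, at -0.003 (SE 0.11, with an interval from -0.26 to 0.25).

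Neither of the 2 members that regulate the wall integrity response passed the test. SLT2 (YHR030C), its MAP kinase, had ratios of 0.41, 0.01, -0.18 and 0.04 on arrays 2 to 5, and 0.36, 0.25, 0.37, 0.32 and 0.23 on arrays 6 to 10, with a difference of 0.19 (SE 0.10, adjusted p = 0.426). SLT2 was above 0 on 7 of 8 replicates. RLM1 (YPL089C), the transcription factor that Slt2 phosphorylates, had ratios of 0.10, -0.29, 0.12 and 0.02 on arrays 2 to 5, and 0.01, 0.06, 0.27, -0.36 and -0.15 on arrays 6 to 10, with a difference of -0.03 (SE 0.105, adjusted p = 0.914). CRH1 and PST1, which are among the known targets of Rlm1, had differences of 0.10 and -0.165 that did not pass. The targets of Rlm1 were not examined as a set.

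No wall gene had a strain difference that depended on the array set in limma's adjusted test of the interaction, where 0.0177% of all genes passed. Before adjustment, 2 of 44, CHS2 and ECM33 (4.55%), had a p under 0.05, beside 6.52% of all genes.

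Other genes of wall construction, taken as 5 lists, gave 1 call, where 0.549% of all genes passed. YGP1 (YNL160W), which encodes a secreted glycoprotein known to increase in starvation, was lower in DJ28. Its ratios were -0.81, -0.90, -1.23, -0.60 and -0.90 on arrays 1 to 5, and -0.76, -0.76, -0.28, -1.16 and -0.74 on arrays 6 to 10. YGP1 fell by 0.81 on the log2 scale (SE 0.11, limma adjusted p = 0.00561, lower on 9 of 9 replicates), and by 0.85 and 0.75 within the 2 array sets. It was the only call among 24 tested genes of other wall-bound proteins and wall enzymes, whose median was -0.09, and the next largest difference there, of the phospholipase gene PLB2, was -0.30 (adjusted p = 0.275, lower on 9 of 9 replicates).

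The other 4 lists had 0 calls in limma's adjusted test. Their counts at an unadjusted p under 0.05 stand beside 13.3% of all genes. Among 28 genes of glucan assembly and glycosylation 5 had an unadjusted p under 0.05, all of them lower, and the median was -0.04. Its largest differences were those of PMT2, a protein O-mannosyltransferase gene, at -0.49 (SE 0.12, adjusted p = 0.148, lower on 8 of 9 replicates), and of KNH1, a homologue of KRE9, at 0.48 (SE 0.24, adjusted p = 0.415). Among 12 genes of chitin metabolism outside the synthases 2 had an unadjusted p under 0.05, both higher: GNA1 at 0.36 (SE 0.14) and QRI1 at 0.28 (SE 0.10), which encode enzymes of UDP-N-acetylglucosamine synthesis. The median of the 12 genes was 0.09, with 9 positive differences, but its sign turned with the dyes: 0.385 where DJ28 was in Cy3 and -0.05 where it was in Cy5.

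In the list of wall integrity signalling 5 of 20 genes had an unadjusted p under 0.05, 2 higher and 3 lower, with a median of -0.03. ROM1, which encodes an exchange factor of Rho1, was at -0.68 (SE 0.16, adjusted p = 0.154) and below 0 on all 7 replicates with a value. RHO1 itself was at 0.34 (SE 0.10, adjusted p = 0.216) with a dye term of 0.43 (adjusted p = 0.0452). In the list of the daughter-cell program outside the members 3 of 16 genes had an unadjusted p under 0.05, 2 higher and 1 lower, with a median of -0.05. Its largest differences were those of RME1, which encodes a repressor of meiosis, at 0.58 (SE 0.20, adjusted p = 0.275, higher on 8 of 9 replicates), and of HYM1 at 0.43 (SE 0.28, adjusted p = 0.513). The HYM1 value rested on array 2, at 2.86, and without it was 0.088.

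**Figure D5:**
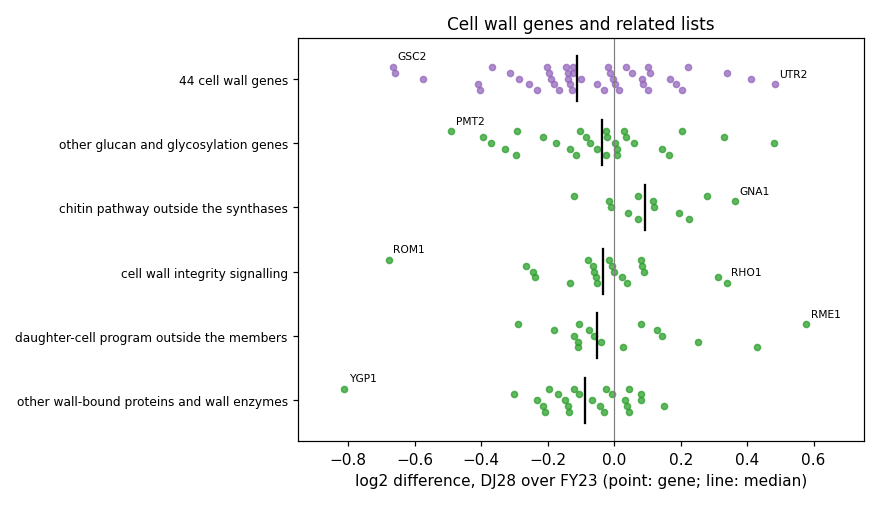
Strain differences (x axis, log2 ratio of DJ28 over FY23) of the 44 wall genes and of 5 lists of related genes, with 1 point per gene and a black line at each median. The medians run from -0.11 for the wall genes to 0.09 for the chitin pathway, and YGP1, at -0.81, is the gene past the test.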

How the data were processed

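The deposited table of the authors holds log2 ratios of the 2 dyes for 6277 rows on 10 arrays. The log2 scale was read from the values, whose upper limit is 16.61. No source used here gives the background correction, the normalization, the numerator dye or the rule for empty cells. Rows were named through the platform annotation (5663 with 1 symbol, 614 unnamed) and updated through gene identifiers to the R64 table. The 13 cells at the limit were dropped, the median of each array was subtracted, and repeated rows of 1 gene were averaged. Testing a gene needed values on at least 3 replicates of each orientation. Fits used limma 3.58.1 in R 4.3.3 (lmFit, eBayes) with a strain and a dye term, two-sided. The code was also run on simulated data, in which the noise of each array was drawn independently. The real arrays may share noise, so that run cannot show that the p-values hold here. A further fit added the interaction of strain and array set. The number of arrays limits the precision: the median SE of a difference was 0.131.

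Members and lists were chosen with earlier results of these data known. Values per array are given for members past the test and for the 2 members (3 in classes of over 5) with the largest absolute difference in each class. In the other lists, members past the test and the 2 with the largest difference are named. Array values of CWP2 and FKS3 were added after they were seen. Counting arrays 6 and 7 as 1 replicate was also decided with those results known.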

Additional observations from a re-analysis of the deposited data

Results flagged for a closer look

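In each dye orientation the replicates of a wall gene were examined for 1 value far from the others (Dixon's test), in 83 groups of 4 or 5 values, and 7 groups had such a value. Chance flags about 1 group in 20. On array 3, 4 genes lay below all other arrays with DJ28 in Cy3: SED1 at -1.12 (others from -0.46 to -0.22), PIR3 at -1.0 (others from -0.36 to -0.31), HSP150 at -0.70 (others from -0.21 to -0.08) and SCW10 at -0.55 (others from -0.02 to 0.08). The mean of arrays 6 and 7 stood apart for PIR3, at 0.57 (others from 0.11 to 0.16), and for FKS3, at -1.08 (others from -0.07 to 0.08). FKS3 also stood apart on array 5, at -2.27 (others from -0.26 to -0.03). The cause was not tested.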

How the results depend on the processing

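The count of 0 higher wall genes became 1 with all 10 arrays counted apart, a fit that takes arrays 6 and 7 as 2 replicates. The count of 0 lower wall genes became 2 with all 10 arrays counted apart, with array weights and on genes with a value on every replicate, and 1 with robust shrinkage. It ran from 0 to 1 over the fits without 1 array, being 1 without array 4 or array 8. In 20 of the 26 alternatives no wall gene passed. Among all genes the 31 calls became 79 with all 10 arrays apart, 113 with array weights, 4 without centring, 17 without arrays 6 and 7, 6 without arrays 1 and 2, 0 and 2 with DJ28 in Cy3 and in Cy5 alone, and 0 within the arrays other than 4, 5, 9 and 10. Without 1 array they ran from 10 (array 10) to 79 (array 8), with 19 without array 2 and 12 without array 9.

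Of the 8 wall genes with an unadjusted p under 0.05, 1 changed sign in 1 alternative, CCW12, at -0.348 with DJ28 in Cy3 alone. Of the other 36, 10 changed sign when 1 array was left out and 24 did so in at least 1 of the other alternatives. The 8 genes were picked by p in these same arrays, so their steadier signs are no further support for them. GAS4 had too few values for a fit without array 3, 4 or 5. The 9 synthesis genes stayed negative in the fits that gave them a value, except with DJ28 in Cy3 alone (7 of 9) and within the arrays other than 4, 5, 9 and 10 (8 of 9). The 2 dye calls became 31 without centring, where the dye term holds the array offsets. The cause of the other changes was not tested.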

Other observations

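The 6 tested PMT genes, which encode protein O-mannosyltransferases, all had negative differences, from -0.49 to -0.17, with adjusted p from 0.148 to 0.536 in limma. Over all genes 43.9% of differences were negative and the rest positive. The 4 enzyme genes of the route to UDP-N-acetylglucosamine, the substrate of chitin synthases, are GFA1, GNA1, PCM1 and QRI1. All 4 had positive differences, from 0.04 to 0.36, with adjusted p from 0.29 to 0.889 in limma. With DJ28 in Cy5 the means of GFA1, PCM1 and QRI1 were -0.085, 0.005 and 0.057, against 0.165, 0.386 and 0.503 in Cy3. GNA1 was at 0.279 in Cy5 and 0.446 in Cy3. Both groups were picked from their lists after the values were seen, and 0 of their genes passed, where 0.549% of all genes did.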
